A study of Mus musculus with 4 samples.

Results

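The genes described are the cytosolic ribosomal protein genes of the mouse, taken as the protein-coding genes whose symbol is Rpl or Rps followed by digits and an optional a, x, l, y or k, together with Rplp0, Rplp1 and Rplp2. The choice rests on symbols and on no measured value. It found 79 genes, 49 of the large subunit and 30 of the small subunit, among 50600 genes counted, of which 21764 are protein-coding. Each was also set beside the gene that shares the most exon bases with it on the other DNA strand. The samples were 4 libraries of T-helper 2 (Th2) primary cells, CD4 T cells that secrete IL-4, IL-5 and IL-13, from mice of strain C57BL/6NJ. All 4 form 1 group, with no treatment or genotype named beside the strain, and the age of the animals was not known to the submitters. The file headers place the cells at 72 h, after a sort. The labels number the libraries as biological replicates 1 to 4 but give them 1 donor entry, so p-values below measure the spread between these libraries, which may be partly technical.

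The cytosolic ribosome translates nuclear-encoded mRNAs. Its small subunit decodes the mRNA, its large subunit joins the amino acids, and the stalk proteins of the large subunit (Rplp0, Rplp1 and Rplp2) recruit the translation factors. Ribosomal protein mRNAs are abundant in growing cells such as activated T cells, many begin with a run of pyrimidines through which mTOR signalling controls their translation, and many of the genes carry small nucleolar RNAs (snoRNAs) in their introns. Processed pseudogene copies of them are scattered over the genome, and an RNA-seq fragment that fits several copies equally well is difficult to assign.

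The counts are fragments assigned by strand, so each value is the number of fragments counted on the annotated strand of a gene. A low value is therefore not taken as a low level of the mRNA. Total gene counts were between 1274431 and 1857433, so that 3 counts, the upper limit that a count of 0 allows, equal 1.62 to 2.35 CPM (counts per 1000000). These limits, and the Wilson intervals below, cover counting error only. All 8 T cell markers examined and all 6 Th2 markers had counts, and the T cell markers summed to 522 to 1203 counts per library and the Th2 markers to 225 to 501. Of these markers, 2 of the T cell list and 3 of the Th2 list have an opposite exon. Cd247, which has an exon opposite Pou2f1, held 533, 577, 389 and 338 of the T cell marker counts in replicates 1 to 4. B cell markers summed to 3 to 56 counts, with Ms4a1 at 0. Of 5 myeloid markers Lyz2, Adgre1 and Itgam were at 0, and the list summed to 542 to 838 counts, nearly all on Csf1r, which has an exon opposite Hmgxb3. The 4 CD8 and natural killer markers were at 0 in all libraries. Red cell markers summed to 11 to 32 counts, all on Alas2, which has an exon opposite Apex2, and stromal markers to 0 to 2. The part of other cell types in the results below was not tested.

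Of the 79 genes, 16 (20.3%) shared exon bases with a gene on the other strand, against 22.1% of all protein-coding genes. In 3 of the 16 the shared bases included coding bases of the ribosomal protein gene. Rpl23a and Rpl35 are shown because their opposite genes, Tlcd1 and Wdr38, were among those with the most counts. Each stretch below is a coding exon of the ribosomal protein gene, 5′ to 3′ on its own strand (the minus strand in each case, mm10, exon bounds and letters from GENCODE M21). Capitals mark the bases that also lie in an exon of the opposite gene. The exons are chr11:78181417-78181593 and chr11:78181154-78181223 of Rpl23a, and chr2:39004732-39004868 and chr2:39001619-39001765 of Rpl35.
Rpl23a, opposite Tlcd1: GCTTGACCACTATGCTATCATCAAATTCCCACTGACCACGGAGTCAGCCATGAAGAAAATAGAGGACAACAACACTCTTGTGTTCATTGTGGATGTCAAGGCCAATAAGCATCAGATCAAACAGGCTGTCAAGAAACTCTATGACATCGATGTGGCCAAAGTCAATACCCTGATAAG
Rpl23a, opposite Tlcd1: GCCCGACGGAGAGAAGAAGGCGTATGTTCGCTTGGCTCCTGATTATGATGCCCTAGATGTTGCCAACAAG
Rpl35, opposite Wdr38: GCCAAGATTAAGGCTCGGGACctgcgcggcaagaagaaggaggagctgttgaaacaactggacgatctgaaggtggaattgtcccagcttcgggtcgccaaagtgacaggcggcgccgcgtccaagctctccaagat
Rpl35, opposite Wdr38: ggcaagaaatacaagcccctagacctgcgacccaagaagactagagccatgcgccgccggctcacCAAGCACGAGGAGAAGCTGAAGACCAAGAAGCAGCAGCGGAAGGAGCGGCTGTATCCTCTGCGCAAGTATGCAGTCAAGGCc

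The 2 Rpl23a exons lie wholly inside exons of Tlcd1. In all, 259 of the 468 coding bases of Rpl23a are shared. Tlcd1 shares 506 bases with Rpl23a, which is 59.7% of the exon length of Rpl23a and 10.1% of its own. Wdr38 spans the whole of Rpl35 and shares 821 bases, or 66.2% of the exon length of Rpl35.

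The start sites of a few members are shown because of the pyrimidine run for which these mRNAs are known. The RefSeq table of start sites (GRCm38.p6) had an entry for 59 of the 79 genes. Windows of 50 bases, from 30 before to 20 after the annotated start, were searched on the gene's own strand alone for a run of at least 8 letters that are all C or T. Such a run was found in 33 of 71 member windows (46.5%) and in 20.2% of 32851 windows of all genes. The match is a description of the letters in the window, and a run may lie before the annotated start, outside the mRNA. Rps24, Rpl4 and Rps25 are among the highest members by count and hold a run, in capitals, while Rps15 holds none. The run of Rps24 spans the annotated start, and those of Rpl4 and Rps25 lie wholly before it. Their windows are chr14:24490648-24490697, chr9:64173357-64173406, chr9:44407684-44407733 and chr10:80292401-80292450, all on the plus strand.
Rps24: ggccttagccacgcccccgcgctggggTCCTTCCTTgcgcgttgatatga
Rpl4: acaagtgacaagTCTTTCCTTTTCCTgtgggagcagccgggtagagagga
Rps25: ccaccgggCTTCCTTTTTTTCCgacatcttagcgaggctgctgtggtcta
Rps15: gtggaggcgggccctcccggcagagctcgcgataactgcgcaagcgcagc

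Counts were found for 77 of the 79 genes, and 75 reached a mean of at least 10 counts, the minimum used for tests. Together the 79 genes held 34264, 12500, 10205 and 24868 counts in replicates 1 to 4. As a share of all gene counts this was 1.92% (95% Wilson interval 1.90 to 1.94) in replicate 1 and 0.673% (0.661 to 0.685) in replicate 2. It was 0.706% (0.692 to 0.719) in replicate 3 and 1.95% (1.93 to 1.98) in replicate 4. The mean was 1.31% ± 0.72 (SD, n = 4). Replicates 1 and 4 thus each had more than both of the others, by far more than counting error. The share of the large subunit genes was between 0.423% and 1.22% and that of the small subunit genes between 0.250% and 0.764%. The order of the libraries for the small subunit genes was the same as for the sum, while for the large subunit genes replicate 1 was above replicate 4.

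**Figure D1:**
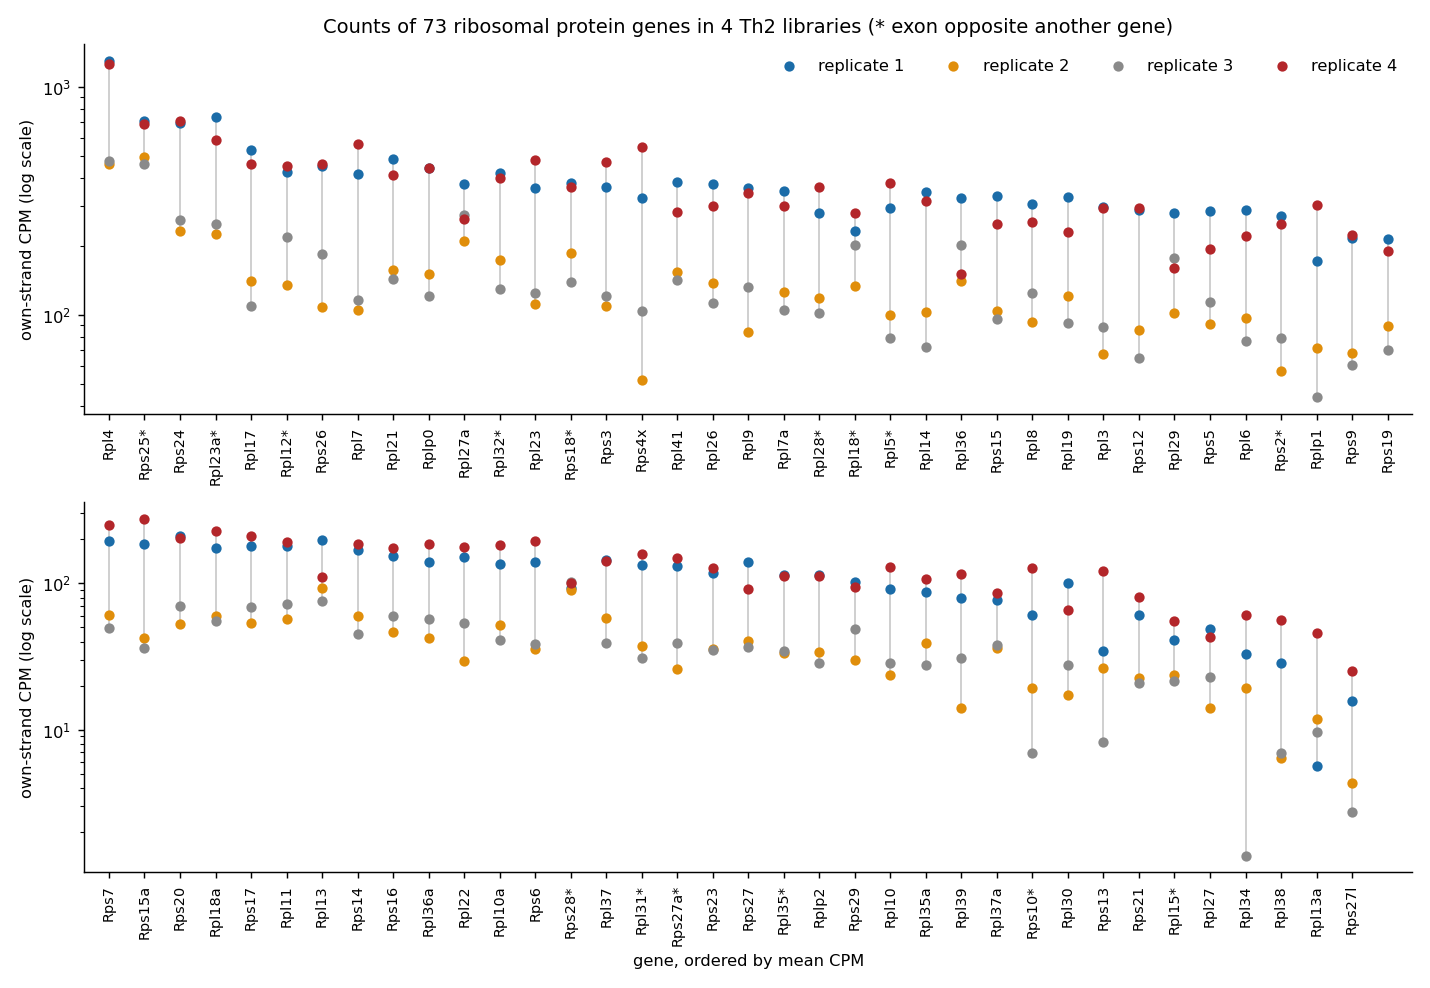
CPM on the annotated strand (log axis) of 73 ribosomal protein genes with a mean of at least 10 counts, ordered by mean, with 1 point per Th2 library and a grey line from the lowest to the highest. An asterisk marks a gene with an exon opposite another gene. Replicates 1 and 4 lie at the top for most genes, Rps28 has the narrowest spread and Rpl34 the widest.

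Levels between genes are given as TPM (transcripts per 1000000), which divides counts by exon length. The 75 genes all stood above the median of 7.17 TPM of the 6071 protein-coding genes with a mean of at least 10 counts, and 53 of them were above 72.4 TPM, the 90th percentile. Rps24, a small subunit protein, had the highest mean with 854 ± 505 TPM (SD, n = 4), from 1235, 432, 377 and 901 counts in replicates 1 to 4. Rpl23a, a large subunit protein at the exit of the peptide tunnel, followed with 805 ± 477 TPM and counts of 1319, 423, 361 and 747. Rpl36 had 758 ± 330 TPM, Rpl4 had 659 ± 381 TPM and Rpl17 had 608 ± 439 TPM. Rps15 had 470 ± 291 TPM, Rplp1 452 ± 377 TPM and Rpl32 441 ± 251 TPM. Each of these SDs is larger than the gap to the next gene, and no neighbours among these 8 kept their order in all 4 libraries. By counts alone Rpl4, a large subunit protein whose gene holds 5 snoRNAs, stood first, with 2318, 850, 684 and 1613 counts.

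Among the well counted members with no opposite exon, Rps26 had 798, 202, 269 and 585 counts in replicates 1 to 4 and Rpl21 had 857, 292, 209 and 525. Rpl7 had 736, 195, 168 and 715 counts and Rpl23, a large subunit protein, 644, 208, 181 and 610. In these 4 genes both replicate 1 and replicate 4 were above both replicate 2 and replicate 3. Rpl27a differed from them, with 669, 394, 395 and 335 counts. Its CPM values are 376, 212, 273 and 263 in the same order, so that replicate 4 lay below replicate 3.

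The stalk genes kept the layout of most members. Rplp0 had 782, 282, 175 and 563 counts in replicates 1 to 4, Rplp1 had 308, 133, 63 and 386, and Rplp2 had 202, 63, 41 and 144. Their mean levels were 264 ± 170 TPM for Rplp0, 452 ± 377 TPM for Rplp1 and 52.9 ± 36.5 TPM for Rplp2. Within each library Rplp1 was above Rplp0, at 527 against 403 TPM in replicate 1, 202 against 129 in replicate 2, 125 against 105 in replicate 3 and 954 against 419 in replicate 4.

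The paralogs named for another member were low or at 0. Rps27l, the paralog of Rps27, had 28, 8, 4 and 32 counts, or 22.5 ± 20.4 TPM, while Rps27 had 249, 75, 53 and 117 counts, or 112 ± 73.6 TPM. Rpl3l, known as the striated muscle paralog of Rpl3, was at 0 except in replicate 4, with 8 counts. Rpl10l and Rpl39l, known as testis paralogs, had 0 counts in all 4 libraries. Rpl24, a standard large subunit gene, was also among the 4 genes under the minimum, with 4, 4, 0 and 0 counts. Rpl13a, the lowest of the 75 tested genes by TPM, had 10, 22, 14 and 58 counts. Rpl24, Rpl13a and Rps27 were picked out here after their values were seen.

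Fragments that map to several places were not counted, as the recorded command has no option for them, so genes with near-identical copies are uncertain. Of 275 annotated pseudogenes with Rpl or Rps symbols, 70 had a count. They summed to 307, 191, 87 and 247 counts in replicates 1 to 4, which is 0.853% to 1.53% of the members' counts. What the uncounted fragments would add to any member was not tested.

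A snoRNA lay inside 28 of the 79 genes, 53 snoRNAs in all. The median level of these 28 genes was 130 TPM, against 98.3 TPM for the other 51. Of the 28 host genes, 28 reached the count minimum, and 47 of the other 51 did. Within each library the hosts' median was the higher one, at 182 against 140 TPM in replicate 1, 51.0 against 44.6 in replicate 2, 53.5 against 50.5 in replicate 3 and 193 against 175 in replicate 4. This is a description, with no test.

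The comparison of each gene with its opposite gene asked which of the 2 held more counts per kb of its whole exon length. Counts are per gene, so the ratio does not show which strand of the shared bases held more fragments. Of the 16 opposite genes 13 were protein-coding and 3 were annotated as antisense RNAs. Per kb, 5 opposite genes were denser than the ribosomal protein gene and 8 ribosomal protein genes were denser than their opposite gene, while 3 pairs did not pass (limma on the log2 ratio in 4 libraries, adjusted p under 0.05 over 3546 pairs). Over all protein-coding genes with an opposite exon, the opposite gene was denser in 57.6% of the pairs tested and the gene itself in 24.8%. Pairs of 2 protein-coding genes enter that background in both directions. Over the whole annotation, genes with no opposite exon held only 16.4%, 8.54%, 9.14% and 20.1% of all gene counts in replicates 1 to 4. A high count on an opposite gene is therefore not taken as a high level of its mRNA. The part of strand assignment in the pair ratios was not tested. The median log2 ratio of the 16 pairs was -1.40 ± 0.92 (SD, n = 4 libraries), against 2.48 ± 0.39 over all pairs tested. For the 16 pairs it was below 0 in each library, between -2.52 in replicate 4 and -0.52 in replicate 2. This median depends on short overlaps: over the pairs that share at least 100 bases it was 0.27 ± 1.36, on the other side of 0.

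**Figure D2:**
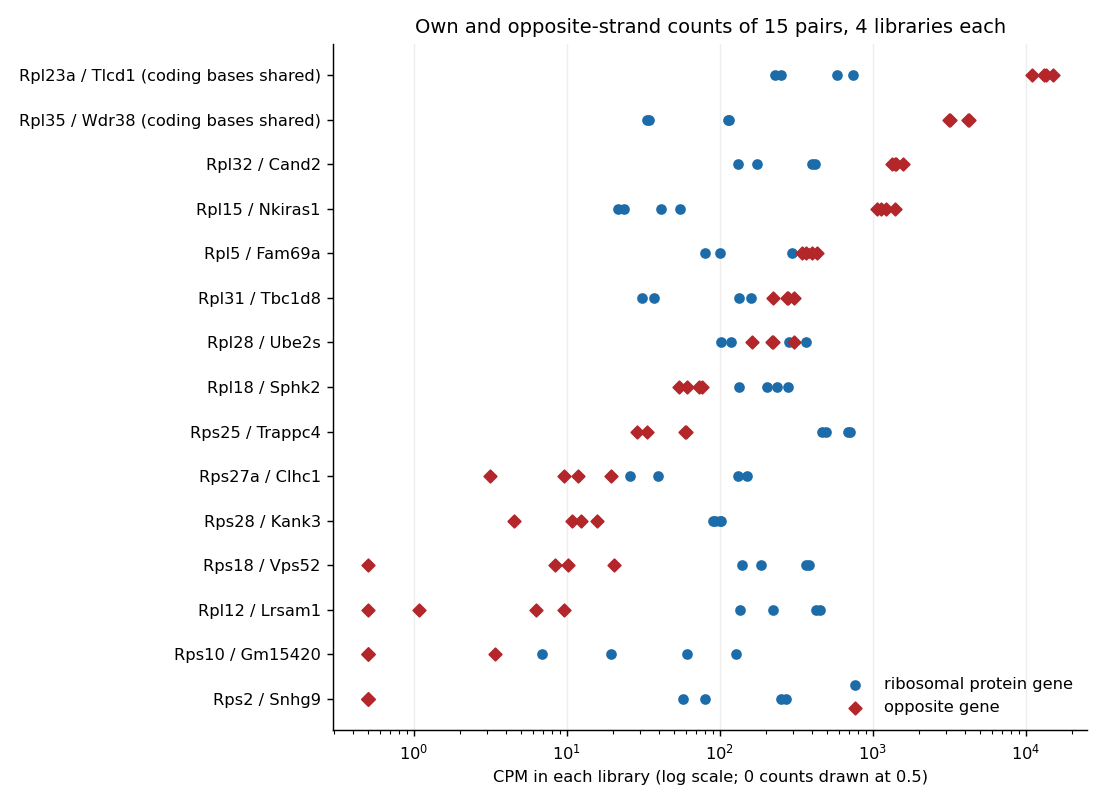
CPM (log axis) of 15 ribosomal protein genes with an opposite exon (blue circles) and of the gene opposite each (red diamonds), with 1 point per Th2 library and counts of 0 drawn at 0.5. In the 2 pairs drawn that share coding bases of the ribosomal protein gene the diamonds lie to the right of all circles, and Snhg9 is at 0 in all 4 libraries.

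Rpl23a and Rpl35, which share coding bases with the opposite gene, were among the 5 in which the opposite gene was denser. Tlcd1 had 26762, 24178, 19634 and 13890 counts against the 1319, 423, 361 and 747 of Rpl23a (ENSMUSG00000058546.8). Per kb the log2 ratio was 2.48 ± 0.36 (SE, n = 4, as for each ratio of a single pair below, limma adjusted p = 0.000958), smaller than the ratio of counts, since the exons of Tlcd1 sum to 5009 bases and those of Rpl23a to 847. Wdr38, a gene of the WD repeat family, had 5710, 7703, 6141 and 3981 counts, and Rpl35, a large subunit protein, 204, 62, 50 and 144. Its log2 ratio was 4.65 ± 0.48 (limma adjusted p = 0.00024). In both pairs the ribosomal protein gene was lower in replicates 2 and 3 than in the others, and the opposite gene had its lowest CPM in replicate 4.

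A further 2 pairs with a denser opposite gene shared no coding base of the member. Nkiras1, an inhibitor of NF-kappaB signalling, had 2481, 2268, 1639 and 1360 counts opposite Rpl15, which had 73, 44, 31 and 70. They share 105 bases, and the log2 ratio was 4.00 ± 0.32 (limma adjusted p = 9.71e-05). Fam69a had 707, 635, 625 and 465 counts opposite Rpl5, the partner of 5S rRNA in the large subunit, which had 523, 185, 115 and 481. Here the ratio was 1.59 ± 0.48 (limma adjusted p = 0.0207), and the counts of Rpl5 in replicate 4 were above those of Fam69a. This call was lost without replicate 2 (adjusted p = 0.0767), without replicate 3 (0.0606) and when counts were not divided by length (0.0647).

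Of the 8 denser ribosomal protein genes, Rpl12, of the large subunit stalk base, had the lowest fitted log2 ratio per kb among those whose opposite gene had counts. It had 754, 252, 319 and 571 counts, and Lrsam1, a ubiquitin ligase gene, had 17, 2, 0 and 8, with 56 shared bases and a log2 ratio of -7.39 ± 0.67 (limma adjusted p = 0.000148). Rps18 had 675, 346, 202 and 465 counts, and Vps52, of the GARP tethering complex, 15, 19, 0 and 26 (log2 ratio -6.24 ± 0.81, limma adjusted p = 0.000602). In both pairs every library of the ribosomal protein gene was above every library of the opposite gene.

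Rps2 had 482, 106, 115 and 321 counts while the antisense RNA gene Snhg9, which lies inside it and shares 14 bases, had 0 in all 4 libraries. Taking 3 counts over the 4 libraries as the limit for Snhg9, Rps2 was at least 34.1-fold denser. With this bound in place of the fitted ratio, the median of the 16 pairs stayed -1.40. Rps10 had 109, 36, 10 and 162 counts and its antisense partner Gm15420 had 6, 0, 0 and 0. That call (log2 ratio -3.41 ± 0.83, limma adjusted p = 0.009) was lost when 5 counts in place of 0.5 were added before taking logs (adjusted p = 0.144).

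Rps25 was the best counted gene of the 8, with 1260, 919, 667 and 880 counts against 51, 62, 85 and 76 for Trappc4, of the TRAPP tethering complex. They share 462 bases, of which 163 are coding in Trappc4, and the log2 ratio was -3.61 ± 0.34 (limma adjusted p = 0.000171). All of these shared bases lie before the RefSeq start window of Rps25 printed above, in exon bases of the GENCODE annotation. Rps28 had 165, 168, 148 and 128 counts and Kank3 8, 20, 18 and 20, with all 88 shared bases coding in Kank3 (log2 ratio -4.33 ± 0.42, limma adjusted p = 0.000194). In these 2 pairs, where the opposite gene's coding bases are shared, the ribosomal protein gene was the denser one.

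The last called pairs were Rps27a, which encodes a ubiquitin fusion, against Clhc1 and Rpl18 against Sphk2, a sphingosine kinase gene. Rps27a had 234, 48, 57 and 191 counts and Clhc1 17, 22, 28 and 4 (log2 ratio -2.99 ± 0.85, limma adjusted p = 0.0166), a call lost without replicate 1 (adjusted p = 0.0725). Rpl18 had 418, 248, 294 and 356 counts and Sphk2 108, 136, 110 and 69 (log2 ratio -1.69 ± 0.36, limma adjusted p = 0.00501).

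Rpl31, Rpl32 and Rpl28 did not pass. Rpl32 had 744, 323, 189 and 510 counts against 2522, 2600, 1921 and 1995 for Cand2. Per kb the log2 ratio was 0.01 ± 0.34 (limma adjusted p = 0.976), and by counts alone it was 2.52 (adjusted p = 0.000899). Rpl31 and Tbc1d8 gave 0.27 ± 0.55 (adjusted p = 0.676), and by counts alone 1.92 (adjusted p = 0.0185). Rpl28 and Ube2s, a ubiquitin-conjugating enzyme gene, gave -1.24 ± 0.50 (adjusted p = 0.0564). That ratio passed without replicate 2 (adjusted p = 0.0396), without replicate 3 (0.0458) and with 5 added counts (0.0243).

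**Figure D3:**
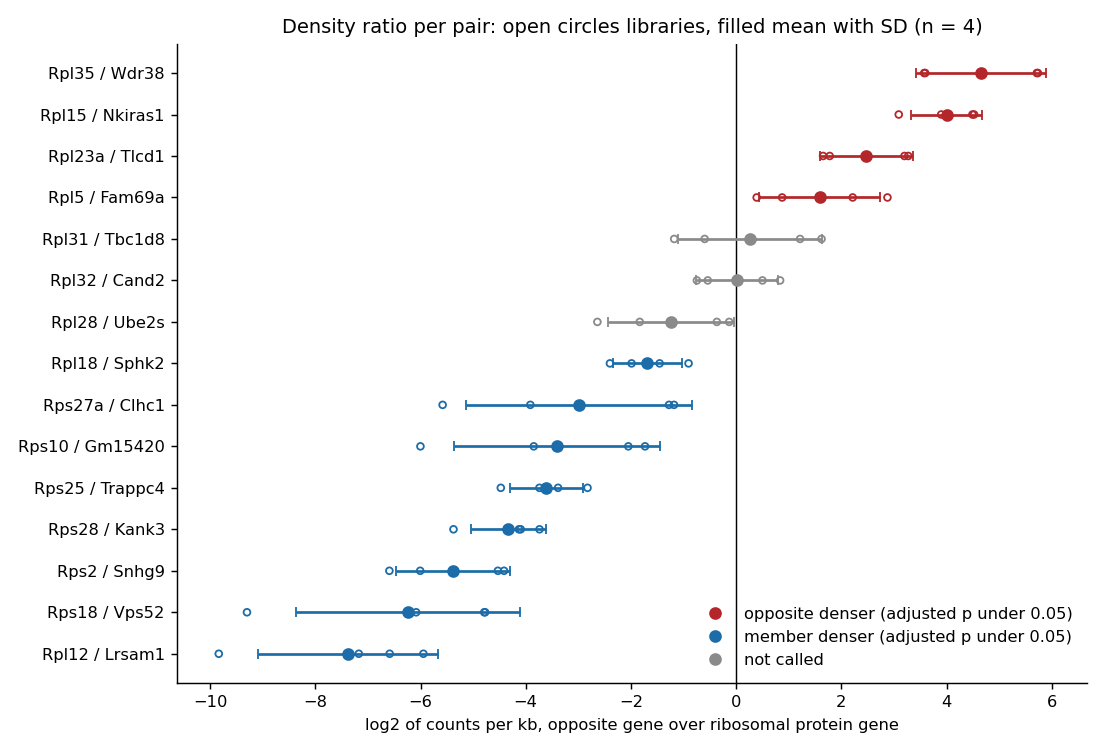
Log2 ratio of counts per kb, opposite gene over ribosomal protein gene, for 15 pairs. Open circles are single Th2 libraries, filled circles the mean with its SD (n = 4), and colours give the limma call. The pairs run from -7.39 for Rpl12 and Lrsam1 to 4.65 for Rpl35 and Wdr38, and 3 pairs near 0 are not called.

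All 16 opposite genes together held 60645, 62945, 51889 and 36968 counts in replicates 1 to 4, which was 3.41%, 3.39%, 3.59% and 2.90% of all counts. This was 7.66, 17.9, 18.5 and 6.18 times the counts of the 16 ribosomal protein genes they face. The sum of the opposite genes thus varied less between libraries than that of the ribosomal protein genes, whose share was between 0.190% and 0.469%. A few genes held most of the opposite sum, with 26762, 24178, 19634 and 13890 counts on Tlcd1 alone. It therefore does not describe each opposite gene.

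Between libraries, the counts of 75 of 75 ribosomal protein genes varied beyond Poisson sampling (chi-square test with TMM-scaled library sizes, adjusted p under 0.05), as did 88.2% of the 7752 genes tested. The median of their SDs on the log2(CPM + 1) scale was 0.79, against 0.70 over all genes tested. The members had a median of 221 counts per library, against 34 over all genes tested, and variation beyond Poisson is easier to call at higher counts. The part of count level in both comparisons was not tested. After TMM scaling the members lay above their own 4-library mean by a median of 0.69 on the log2 scale in replicate 1 and 0.65 in replicate 4. They lay below it by a median of -0.56 in replicate 2 and -0.71 in replicate 3. Over all genes tested the medians were 0.12, -0.01, -0.08 and 0.13 in replicates 1 to 4. Relative to total counts the scaling itself moved all genes by -0.12, 0.23, 0.12 and -0.24 on the log2 scale in replicates 1 to 4. The direction of the members' median was the same in each library with total counts, with DESeq2's size factors and with no filter.

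The presence of an opposite exon moved with these library differences over the whole annotation. The 3827 tested genes with no opposite exon had median deviations of 0.44, -0.40, -0.51 and 0.68 in replicates 1 to 4, and the 3925 with one had -0.10, 0.26, 0.16 and -0.26. The 59 members with no opposite exon had 0.69, -0.56, -0.72 and 0.65. The 16 members with an opposite exon had 0.57, -0.53, -0.66 and 0.56, on the same side of 0 as the genes with no opposite exon. Of the genes that face the members, 13 were tested, with medians of -0.13, 0.27, 0.31 and -0.40. The part of strand assignment in the difference between libraries was not tested.

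**Figure D4:**
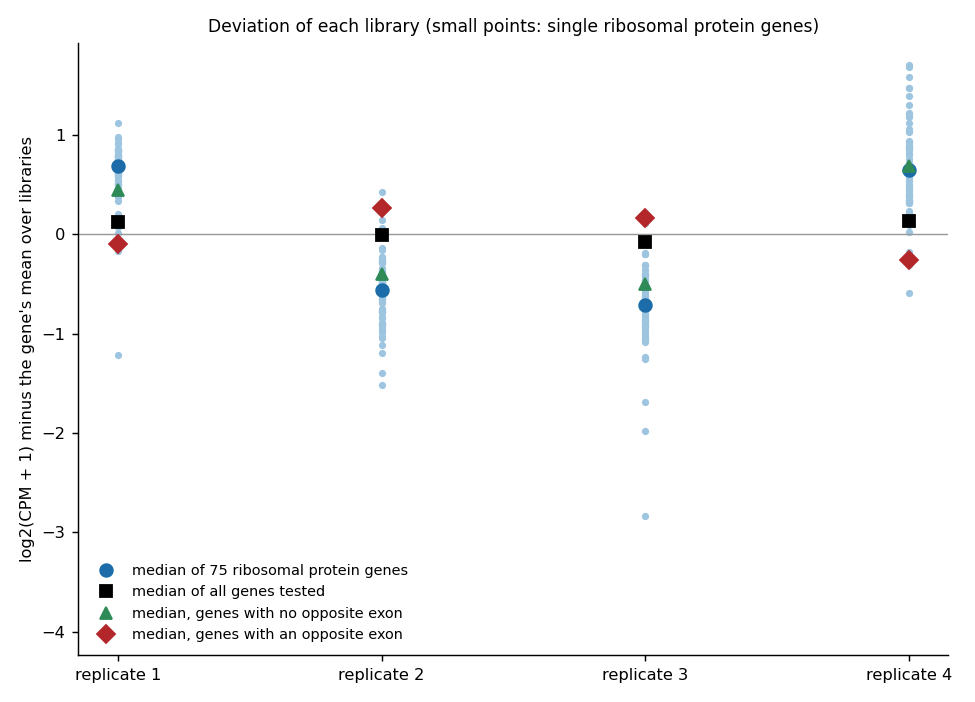
Deviation of log2(CPM + 1), with TMM-scaled library sizes, from each gene's mean over the 4 Th2 libraries. Small points are single ribosomal protein genes and large symbols are medians over the 75 members, all 7752 genes tested, the 3827 with no opposite exon and the 3925 with one. The members' medians of 0.69, -0.56, -0.71 and 0.65 lie on the same side of 0 as those of genes with no opposite exon.

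After TMM scaling, replicate 1 was the highest library for 41 of the 75 genes, replicate 4 for 33, replicate 3 for 1 and replicate 2 for 0. The lowest library was replicate 3 for 42, replicate 2 for 29, replicate 4 for 3 and replicate 1 for 1. The leading library depended on the scaling: with total counts replicate 1 was highest for 33 genes and replicate 4 for 41, and the lowest library was replicate 3 for 37, replicate 2 for 37, replicate 1 for 1 and replicate 4 for 0. Over all genes tested, replicates 1 to 4 were highest in 20.3%, 24.6%, 19.6% and 35.6%. The exceptions, named after their values were seen, were Rps28, which was highest in replicate 3, Rpl27a and Rpl36, lowest in replicate 4, and Rpl13a, lowest in replicate 1. Rps28 stayed highest in replicate 3 with total counts and with DESeq2's size factors, while its lowest library was replicate 4, 2 or 1 by TMM, total counts or size factors. With total counts Rpl27a and Rpl36 were lowest in replicate 2. Rps25 and Rps28 had the smallest SDs of all members, 0.15 and 0.20 on the log2 scale. The largest were those of Rpl34 (1.95), with 59, 36, 2 and 78 counts, and Rps10 (1.60).

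With edgeR's quasi-likelihood test of 1 library against the other 3, 0 of the 75 genes were called in any library at an adjusted p under 0.05. Over all genes the share called was 0% for replicate 1, 0.0129% for replicate 2, 0.0387% for replicate 3 and 0% for replicate 4. At an unadjusted p under 0.05 edgeR had 0 members for replicate 1, 10 lower for replicate 2, 11 lower for replicate 3 and 8 higher for replicate 4. The same threshold, in either direction, was passed by 0.426%, 2.79%, 9.37% and 8.81% of all genes tested, so that for replicates 3 and 4 the members' counts are near the background. DESeq2 also called 0 in each comparison, with 0, 10, 11 and 5 members and 0.761%, 3.13%, 9.34% and 8.19% of all genes at an unadjusted p under 0.05.

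Leaving out 1 library changed this in 4 fits and not in the others. In each of the 4, the library left out was the one whose members' median deviation had the same sign as that of the library tested. The lone library is assumed to vary like the pair it is set against. Without replicate 4, 35 of the 75 genes (46.7%) were higher in replicate 1 than in replicates 2 and 3, against 1.57% of all genes. Without replicate 3, 29 (38.7%) were lower in replicate 2 than in replicates 1 and 4, against 3.17% of all genes. Without replicate 2, 42 (56%) were lower in replicate 3, against 8.09%. Without replicate 1, 47 (62.7%) were higher in replicate 4, against 6.93%. Rpl4 was among the first, with a log2 fold change of 1.21 in replicate 1 without replicate 4 (edgeR adjusted p = 0.0108). For Rps26 the log2 fold change in replicate 2 without replicate 3 was -1.61 (edgeR adjusted p = 0.00553), and for Rplp1 in replicate 3 without replicate 2 it was -2.10 (edgeR adjusted p = 0.000698). For Rpl7 it was 1.95 in replicate 4 without replicate 1 (edgeR adjusted p = 0.0101). The 4 fits share libraries and are not independent of each other.

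Genes with no opposite exon are the nearer comparison for most members, and of these 2.71%, 5.05%, 12.8% and 11.5% were called in the same directions in the 4 fits. Their median log2 fold changes were 0.92, -1.13, -1.24 and 1.25, against 1.34, -1.23, -1.32 and 1.33 for the members. The members also had more counts, with a median of 221 per library against 22.2 for the tested genes with no opposite exon. The part of count level in the number of calls was not tested.

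Other genes of translation were described by the same medians. A list of 7 genes of the same machinery outside the symbol rule, among them Rpsa, Fau and Rack1, had deviations of 0.83, -0.19, -1.09 and 0.89 in replicates 1 to 4. The list does not hold every ribosomal protein gene that the rule leaves out. For example, Rpsa, a small subunit protein, had 577, 126, 133 and 460 counts, and Fau, a ubiquitin-like fusion to a small subunit protein, had 385, 135, 60 and 176. Both had replicates 1 and 4 above replicates 2 and 3.

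Of 67 initiation and elongation factor genes 53 were tested, with median deviations of 0.48, -0.63, -0.57 and 0.75. In the 4 fits with 1 library left out, 8 of 50 were higher in replicate 1, 13 of 55 lower in replicate 2, 15 of 54 lower in replicate 3 and 17 of 52 higher in replicate 4. Over all genes the shares called in these directions were the 1.57%, 3.17%, 8.09% and 6.93% given above. The 28 tested genes of ribosome biogenesis had 0.57, -0.30, -0.47 and 0.24, and 9 tested genes that control translation of ribosomal protein mRNAs, among them Mtor and Larp1, had 0.34, -0.46, -0.55 and 0.56. Mitochondrial ribosomal protein genes, which serve the ribosome of the mitochondria, had 0.34, -0.09, -0.49 and 0.34 over 45 of 78 genes. Fewer of them were called, and in both directions: 0 of 40 in replicate 1 without replicate 4, and 1 higher and 1 lower of 51 in replicate 2 without replicate 3. In replicate 3 without replicate 2, 1 was higher and 4 were lower of 50, and in replicate 4 without replicate 1, 1 was higher and 4 were lower of 43. Of the biogenesis genes 2 of 28, 2 of 29, 3 of 28 and 3 of 27 were called in the members' direction in the 4 fits, and 1 in the other direction in replicate 4. The medians of all these lists lay on the same side of 0 as the cytosolic ribosomal protein genes in each library. Their median levels were 5.82 TPM for the 78 mitochondrial ribosomal protein genes and 14.2 TPM for the 67 translation factors, against 113 TPM for the 79 cytosolic ones.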

How the data were processed

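The authors deposited raw fragment counts per gene for each library. Per the file headers, featureCounts v1.4.6-p4 counted them over exons of GENCODE M13, paired ends, both ends mapped, strand option 1, with no option to count fragments that map to several places. The assembly is mm10 per the labels. The labels name total RNA-seq as the assay and link a protocol whose title names poly(A) RNA.

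Symbols and biotypes came from GENCODE M21, which named 50376 of 50600 identifiers. The 224 unnamed ones stayed in totals and tests. CPM and TPM were computed from the counts and the exon lengths in the files. Opposite exons were found on the exon bounds of the count files and checked with bedtools 2.31.1. Pair ratios, log2 of counts plus 0.5 per kb, were tested with limma 3.58.1, and libraries with edgeR 4.0.16 (quasi-likelihood, TMM, mean count of at least 10) in R 4.3.3. DESeq2 1.42.0 was an alternative. P-values were adjusted by Benjamini-Hochberg over all genes or pairs tested, and tests were checked on simulated data. Python 3.11.15 was used otherwise.

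The members, lists and tests were chosen with earlier results of these data known. Named with values were the 8 members of highest TPM, the 8 pairs with most opposite counts, up to 10 well counted members with no opposite exon, members denser than the opposite gene in all 4 libraries, up to 6 members called in a library comparison, the stalk genes and the paralogs ending in l. Further genes are marked where they were picked with their values in view. Alternatives were other totals, scalings, filters, added counts and overlaps, and leaving out each library. The split by opposite exon for deviations and shares, and the order of libraries under other scalings, were chosen after seeing the data. Some members and genes that the rule names are not reported here by name, and they stay in counts and medians.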

Additional observations from a re-analysis of the deposited data

Results flagged for a closer look

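Among 49 sets of 4 values examined, 2 had 1 library far from the other 3, where chance gives about 1 in 20. For Rpl3l, replicate 4 had 8 counts and the other libraries 0, so the gap from that library to the nearest of the others was the whole range (ratio 1). For Gm15420, the antisense gene opposite Rps10, replicate 1 had 6 counts and the others 0, again with a ratio of 1. Both rest on fewer than 10 counts. With 0 counts in 3 libraries the ratio is 1 whatever the remaining count, so the rate of 1 in 20 does not apply to these sets.

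Pseudogenes with Rpl or Rps symbols, which enter no comparison, held 832 counts over the 4 libraries, above the 3 counts that a count of 0 allows. Rpl14-ps1 had the most, with 138, 32, 28 and 97 counts in replicates 1 to 4, while Rpl14 had 617, 192, 105 and 401. Rps12-ps9 had 30, 21, 6 and 10 counts.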

How the results depend on the processing

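Of 115 alternatives over these results, 105 gave a count close to the main one or a value within its SD over libraries. Calls of single pairs could still change among these. For the members' median deviations the SD used was 0.75, that of the 4 library medians themselves. It is larger than the size of each of these medians, so a value of the other sign could still count as close. The sign of each median was nevertheless kept in every alternative. With protein-coding genes as the total, the members' share of counts was 2.23% in place of 1.31%, by construction of a smaller total. With at least 100 shared bases, 4 pairs in place of 8 had a denser ribosomal protein gene and the median log2 ratio was 0.27 in place of -1.40, since fewer pairs enter. With 1 library left out, the members called in 1 library against the others were between 0 and 35 for replicate 1, 0 and 29 for replicate 2, 0 and 42 for replicate 3 and 0 and 47 for replicate 4. The pair calls that a single library or the added count decides are given beside those pairs.

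No paired analysis was possible because all 4 libraries belong to 1 group. Depth limits the lowest members: Rpl3l, Rpl24, Rpl10l and Rpl39l had at most 8 counts in any library, and a lower level in 1 library than in another was not detectable for them. Values are counts on the annotated strand, fragments that fit several places are missing, and 4 libraries of 1 group allow no comparison of conditions.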
